A study of Mus musculus with 8 samples.

Results

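The microRNAs mmu-miR-451a, mmu-miR-144-3p, mmu-miR-144-5p and mmu-miR-486a-5p were followed in mouse kidney, each by its annotated name among the non-control probes, which makes 4 of the 1881 mouse miRNAs on the array. The samples were 4 kidneys with ischemia-reperfusion injury (IRI, replicates 1, 2, 3 and 18) and 4 sham kidneys (replicates 1, 2, 3 and 6), each on 1 single-colour miRNA microarray. All were male C57BL/6 mice aged 9 weeks that had been operated on under isoflurane. IRI mice lost the right kidney, and the vessels of the left kidney were clamped for 25 or 45 min and then released, with harvest at 12 or 24 h. Sham mice had a midline incision alone, with neither nephrectomy nor clamping, and the effects of those 2 procedures cannot be told apart. The labels give neither the clamp time nor the harvest time of a sample. They do not name the animal behind a sample either, and p-values therefore cover only the spread between these samples.

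All of these miRNAs are known from red blood cells. The genes for miR-144 and miR-451a lie side by side and are transcribed together from a promoter that the erythroid factor GATA1 drives. miR-144 is cut by Dicer in the usual way, whereas the short miR-451a hairpin is cleaved by Argonaute 2 itself, without Dicer. miR-486 lies in the gene of the red cell membrane protein ankyrin and is also abundant in skeletal and heart muscle. Mature red cells have no nucleus but keep these miRNAs, so whole tissue that holds blood holds them too. In whole kidney RNA, more cells of a type and more of an RNA per cell cannot be told apart.

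The mature sequences show which product of each hairpin was followed. RefSeq (GRCm38.p6) held 3 of the 4 members, all on the plus strand of chromosome 11: miR-144-5p at chr11:78073010-78073032, miR-144-3p at chr11:78073047-78073066 and miR-451a at chr11:78073186-78073207. Each is written 5′ to 3′ with the seed, bases 2 to 8, in capitals.
mmu-miR-451a: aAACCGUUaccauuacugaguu
mmu-miR-144-3p: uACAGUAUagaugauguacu
mmu-miR-144-5p: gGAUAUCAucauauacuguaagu
The seeds differ from each other, and 0 of the other mature names in a table of 1679 shared any of them. The hairpins, with miR-451a and miR-144-3p in capitals, show that the first ends in the loop while the second forms the far arm.
Mir451a: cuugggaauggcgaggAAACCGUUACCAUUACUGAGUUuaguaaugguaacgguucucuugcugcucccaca
Mir144: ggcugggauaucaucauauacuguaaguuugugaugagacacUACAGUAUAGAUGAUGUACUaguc
The hairpins are 72 and 66 bases long, and 99 bases lie between them. Mir486 lies inside Ank1, the erythrocyte ankyrin gene, on chromosome 8.

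The 8 arrays shared a single slide and scan, with IRI arrays in slide row 2 and sham arrays in slide row 1, so row and group cannot be told apart. Signals are spot intensities after the scanner software's background subtraction, summed over a miRNA's probes and scaled between arrays, and can fall below 0. IRI arrays detected 393 to 447 miRNAs and sham arrays 327 to 379. The 75th percentile of signal used for scaling was 445 to 562 on IRI arrays and 356 to 456 on sham arrays. All 6 kidney tubule miRNAs on a list that includes miR-192-5p and miR-194-5p were detected on all 8 arrays. Sham 1, which stands apart below for the erythroid miRNAs, had the highest percentile and the most detected miRNAs of the sham arrays.

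Every member had a higher signal on each IRI array than on any sham array. miR-451a, the one member detected on all 8 arrays, had a mean signal 7.19 times that of sham and was called higher in IRI (limma, Benjamini-Hochberg over 379 miRNAs, threshold 0.05). miR-144-3p and miR-486a-5p were called higher too, but they entered the test only because every IRI array detected them, so the number of members called supports nothing. Over all tested miRNAs, 12.1% (46 of 379) were called higher and 36.7% (139 of 379) lower, and 10.6% (40 of 379) had all IRI values above all sham values. By log2 change miR-451a ranked 2 of 379.

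**Figure D1:**
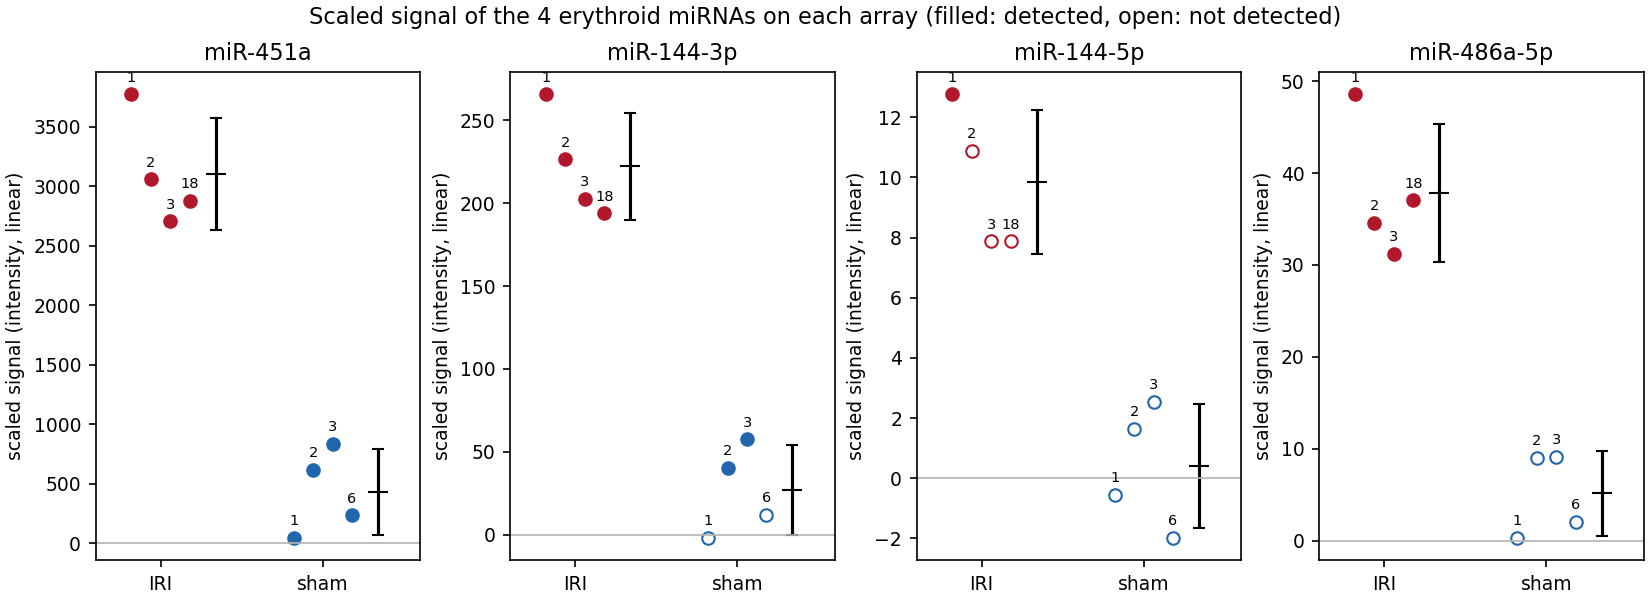
Scaled signal (intensity, linear axes, a separate scale per miRNA) of the 4 members on each IRI and sham array, numbered by replicate, with the mean and SD of the 4 arrays beside the points. Filled points were detected and open points were not, and each IRI point lies above each sham point of the same miRNA.

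miR-451a, the most abundant miRNA of red cells, was detected on every array. Its scaled signal was 3773, 3061, 2706 and 2879 on IRI 1, 2, 3 and 18, and 42.7, 617, 835 and 232 on sham 1, 2, 3 and 6. The IRI arrays lay close together, the sham arrays were far apart with sham 1 lowest, and the groups did not overlap: the lowest IRI array was 3.24 times the highest sham array. The means were 3105 ± 469 in IRI and 432 ± 360 in sham (SD, n = 4 each). The log2 change was 3.53 ± 0.86 (SE; 95% interval 1.54 to 5.51; limma adjusted p = 0.0106), a geometric fold of 11.5. Without sham 1 the log2 change was 2.64 (limma adjusted p = 0.00552).

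The call for miR-451a was lost when all 1881 miRNAs were tested (limma adjusted p = 0.126). Pairs within the 4 slide columns, each holding 1 array of either group, gave log2 changes of 6.46, 2.31, 1.70 and 3.63. All 4 columns had the same direction, which any pairing would give since the groups did not overlap. Column 1, which pairs the highest IRI array with sham 1, had the largest change.

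miR-144-3p, the main arm of the neighbouring hairpin, passed the detection call on sham 2 and sham 3 and on every IRI array. Its scaled signal was 266, 226, 203 and 194 on IRI 1, 2, 3 and 18, and -1.98, 40.5, 57.7 and 12.1 on sham 1, 2, 3 and 6. The sham arrays had the same order as for miR-451a, with sham 3 highest and sham 1 lowest, and no sham array reached the IRI range. The means were 222 ± 32.1 in IRI and 27.1 ± 27 in sham (SD, n = 4 each). The log2 change was 2.93 ± 0.40 (SE; 95% interval 2.00 to 3.86; limma adjusted p = 0.00118), and it ran from 1.08 to 5.49 over the alternative settings. Sham 1 and sham 6 enter the reported 2.93 at the floor of 17.3, a level that 5% of detected signals fall below, so its size is only partly measured. The 5.49 came from the authors' deposited table, where sham 1 and sham 6 hold a constant times an array factor, not measured signals. In the slide columns where both arrays detected it, columns 2 and 3, IRI was 5.59 and 3.51 times sham.

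miR-144-5p, the other arm of the miR-144 hairpin, was near the background. Its scaled signal was 12.8, 10.9, 7.88 and 7.88 on IRI 1, 2, 3 and 18, and -0.549, 1.66, 2.55 and -1.98 on sham 1, 2, 3 and 6. It was detected on IRI 1 alone, lay under the floor on all 8 arrays and was not tested. The negative control level for the same number of probes was 4.32 to 8.36 on IRI arrays and 4.38 to 9.33 on sham arrays. IRI 1 and IRI 2 stood above their own control levels of 4.32 and 5.80, IRI 3 and IRI 18 lay near theirs of 7.16 and 8.36, and all 4 sham values lay below theirs. The means were 9.85 ± 2.40 in IRI and 0.419 ± 2.06 in sham (SD, n = 4 each), and no fold is given.

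miR-486a-5p, transcribed from a separate chromosome, was dim but detected on all 4 IRI arrays and on no sham array. Its scaled signal was 48.6, 34.6, 31.2 and 37.1 on IRI 1, 2, 3 and 18, and 0.298, 9.05, 9.14 and 2.09 on sham 1, 2, 3 and 6. The groups did not overlap, and of the negative control levels of 4.38, 6.49, 9.05 and 9.33 on the same sham arrays, those of sham 2 and sham 3 were passed and those of sham 1 and sham 6 were not reached. The mean was 37.9 ± 7.52 in IRI and 5.14 ± 4.62 in sham (SD, n = 4 each). With all sham values at the floor of 17.3, the tested log2 change was 1.11 ± 0.13 (SE; limma adjusted p = 0.000749), which is no measured size. As a bound, to which that p does not belong, it was at least 1.47-fold higher in IRI. The bound sets a geometric mean of 37.3 in IRI against 25.4 in sham, taken per sham array as its own signal or the weakest clearly measured signal of that array, whichever was higher. Under normexp background correction the call was lost, with a log2 change of 0.11 (limma adjusted p = 0.235).

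Inside the sham group, miR-451a and miR-144-3p ranked the arrays alike. From array to array the order was sham 3, 2, 6 and 1 from high to low for both. The undetected signals of miR-486a-5p had that order only after scaling. Its sham 3 and sham 2 were nearly equal at 9.14 and 9.05, and before scaling sham 2 was higher, at 8.89 against 7.55. For miR-144-5p the order was sham 3, 2, 1 and 6, all under the control level. On sham 3 miR-451a stood at 193% of its sham mean, miR-144-3p at 213% and miR-486a-5p at 178%. On sham 1 the same miRNAs stood at 9.90%, -7.30% and 5.79%. These shares include undetected signals: miR-144-3p was not detected on sham 1 and sham 6, and miR-486a-5p on no sham array.

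Among IRI arrays the differences were small. IRI 1 was highest for all 4 members, at 122% of the IRI mean for miR-451a, 120% for miR-144-3p and 128% for miR-486a-5p. The other IRI arrays lay between 82.5% and 102% for those miRNAs, and their order differed between members. miR-451a put IRI 2 second and IRI 3 last, miR-144-3p put IRI 2 second and IRI 18 last, and miR-486a-5p put IRI 18 second and IRI 3 last. For miR-144-5p, detected on IRI 1 alone, IRI 2 was second, and IRI 3 and IRI 18 were level at 7.88. IRI 1 also detected the most miRNAs of any array, and its high rank was not particular to the members. It was the highest IRI array for miR-30a-5p, miR-192-5p, miR-126a-3p and miR-142a-3p too. miR-223-3p was highest on IRI 2 and miR-200b-3p on IRI 18. With 4 arrays a group, no correlation is given.

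**Figure D2:**
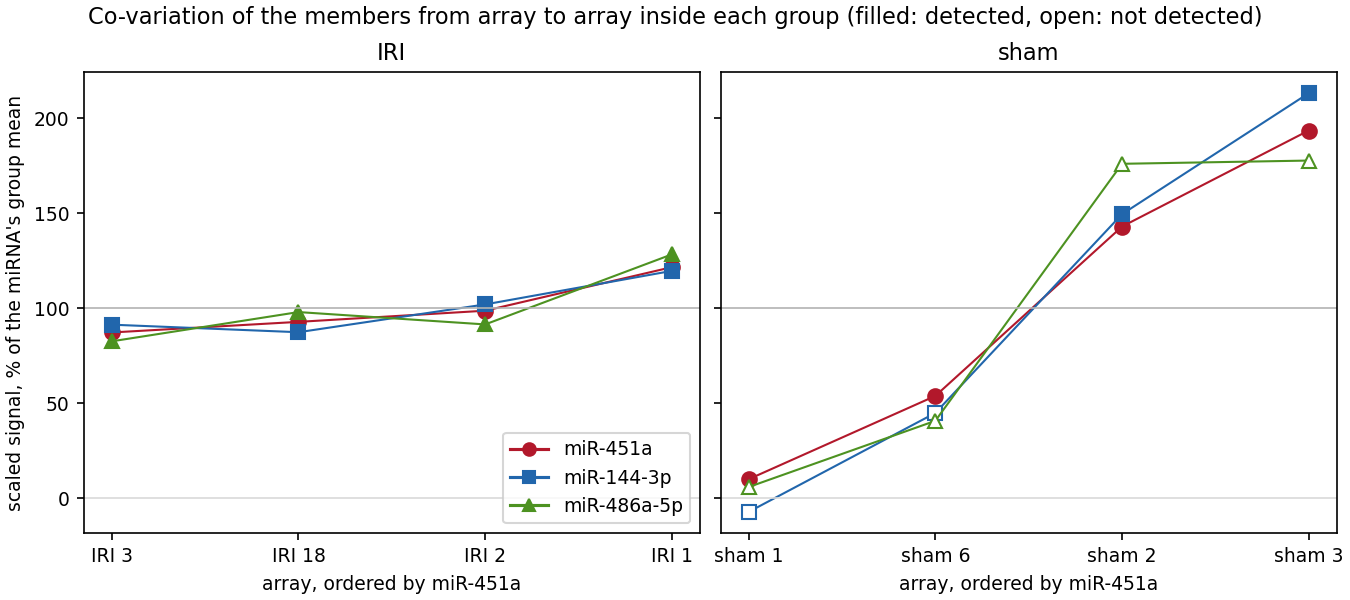
Scaled signal of miR-451a, miR-144-3p and miR-486a-5p as a percent of each miRNA's mean in its group (vertical axis), for the IRI arrays (left) and sham arrays (right) ordered by miR-451a. In sham, miR-451a spans 9.90% to 193% and the other lines, partly of undetected signals, have the same order, and the IRI lines stay between 82.5% and 128%.

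Where both were detected, the signals of miR-451a and miR-144-3p kept a nearly fixed proportion. The size of a ratio between probes for different miRNAs is no ratio of molecules, and only its change from array to array is compared. The ratio of miR-451a to miR-144-3p was 14.2, 13.5, 13.3 and 14.8 on IRI 1, 2, 3 and 18, and 15.2 and 14.5 on sham 2 and sham 3. Over these 6 arrays, the ones where both were detected, its highest value was 1.14 times its lowest, while miR-451a itself ranged from 617 to 3773, or 6.12-fold. That range holds the difference between the groups: miR-451a was 2706 to 3773 on IRI arrays and 617 and 835 on sham 2 and sham 3. The steady ratio therefore says little about variation inside a group. On sham 6 the ratio was 19.1, with miR-144-3p not detected, and sham 1 gave no ratio, with miR-144-3p at -1.98.

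The mean share of miR-451a over the IRI arrays was 7.17% for miR-144-3p and 1.21% for miR-486a-5p. At that share miR-144-3p would be 3.06, 44.2, 59.8 and 16.6 on sham 1, 2, 3 and 6, against the measured -1.98, 40.5, 57.7 and 12.1. The measured values were slightly lower on each of these arrays, and only those of sham 2 and sham 3 were detected. For miR-486a-5p the share gives 0.519, 7.49, 10.1 and 2.82, against the measured 0.298, 9.05, 9.14 and 2.09, all of them undetected, so they do not show whether the share was kept. Its own ratio to miR-451a in IRI was 77.7, 88.5, 86.6 and 77.7 on IRI 1, 2, 3 and 18.

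**Figure D3:**
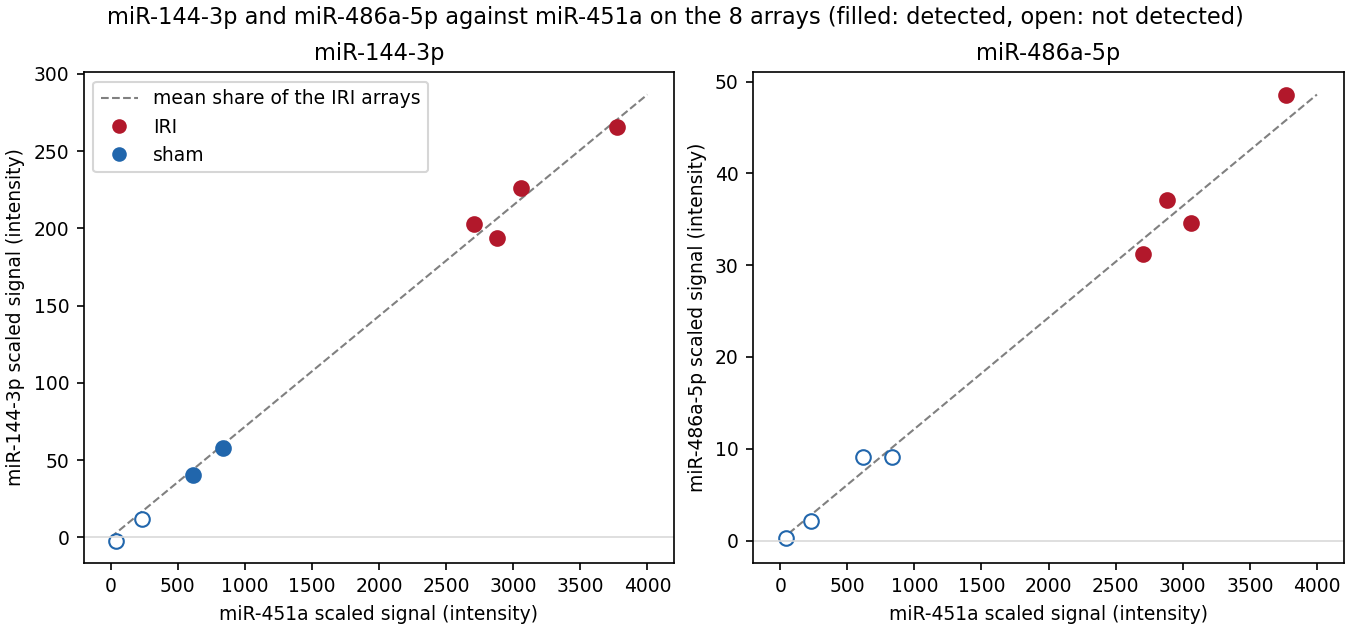
Scaled signal (intensity) of miR-144-3p (left) and miR-486a-5p (right) against that of miR-451a on the 8 arrays, with a dashed line at the mean share of miR-451a over the IRI arrays, 7.17% and 1.21%. Filled points were detected, open points were not, and the 2 detected sham points of miR-144-3p lie near the line drawn from the IRI arrays.

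The test of unequal change compared the log2 difference between miR-451a and miR-144-3p on each array. It averaged 3.80 ± 0.07 in IRI and 3.21 ± 1.27 in sham (SD, n = 4 each), a difference of 0.59 (exact permutation test over 35 splits, two-sided, p = 0.771, the smallest possible p being 0.0286). The difference was 1.31 on sham 1, against 3.93, 3.85 and 3.75 on sham 2, 3 and 6, with miR-144-3p at the floor on sham 1 and sham 6, so those 2 values depend on the floor. On the 6 arrays with both detected the difference was -0.088 (exact permutation test, two-sided, p = 0.267), an alternative chosen after seeing the data whose smallest possible p of 0.0667 could not pass the threshold. Under normexp background correction it was 1.78 (exact permutation test, two-sided, p = 0.0286). This was the only pair of members whose signals passed the floor on at least 1 array of each group.

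Among sham kidneys, miR-451a varied more than any other tested miRNA. Its SD of log2 scaled signal was 1.93 in sham, rank 1 of 379, and miR-144-3p followed at 0.88, rank 2, with 2 floored values. That SD was 0.24 under normexp and 1.19 with a floor at the 1st percentile. The next miRNAs were miR-706 at 0.72, miR-5128 at 0.70 and miR-468-3p at 0.69, and the median over all tested was 0.13. In IRI the SD was 0.21 for miR-451a, rank 179, and 0.20 for miR-144-3p, rank 183, beside a median of 0.19. The highest over the lowest signal of miR-451a was 1.39 in IRI and 19.5 in sham. Without sham 1 the sham SD of miR-451a was 0.97.

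**Figure D4:**
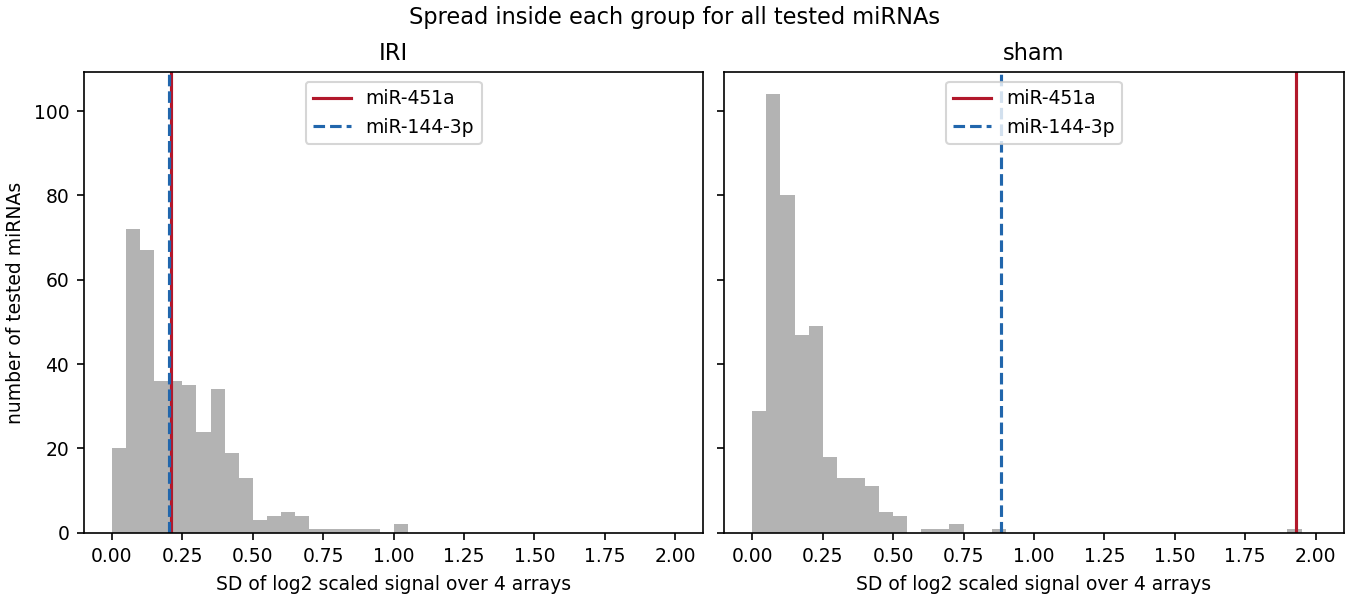
Number of tested miRNAs (vertical axis) by SD of log2 scaled signal over the 4 arrays of a group, for IRI (left) and sham (right), with lines at miR-451a and miR-144-3p. In IRI both lie near the median of 0.19, and in sham they lie at 1.93 and 0.88, the second resting on floored values, above all other tested miRNAs at this floor.

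For miR-451a and miR-144-3p the separate probes gave the same order of sham arrays where detected. Each member had 2 probes of 15 spots, of which 10 to 15 were used. For miR-451a the probes of 21 and 22 bases averaged 1319 ± 206 and 1786 ± 263 in IRI, and 182 ± 152 and 250 ± 208 in sham (SD, n = 4 each). The longer probe was 1.34 to 1.41 times the shorter on all 8 arrays, so both probes placed sham 1 lowest. Spots of a miR-451a probe on the same array varied by 1.71% to 3.71% (CV) on IRI arrays and by 3.52% to 17.1% on sham arrays, which is spot noise and does not measure the spread between kidneys. For miR-144-3p the probes of 19 and 20 bases kept a ratio of 1.06 to 1.16 on the 6 arrays that detected it. The probes of the dim members ordered arrays differently. Of those for miR-144-5p, the one of 22 bases was highest on IRI 18 (3.63) and the one of 23 bases on IRI 1 (9.99). For miR-486a-5p, the probe of 14 bases was highest on IRI 1 (28.1) and on sham 3 (6.21), and that of 13 bases on IRI 1 (20.4) and on sham 2 (3.74), with both sham values undetected.

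Likeness to miR-451a was measured as the root mean square difference of log2 signals over the 8 arrays, each miRNA centred on its own mean. miR-144-3p, with sham 1 and sham 6 at the floor, was nearest of all tested miRNAs at 0.83, where a flat profile would give 2.13. The nearest other miRNAs were miR-21a-3p at 1.25, miR-6931-5p at 1.42, miR-3082-5p at 1.48, miR-7036a-5p at 1.49, miR-132-3p at 1.50 and miR-7040-5p at 1.50. All 6 were called higher in IRI, and centring over all arrays keeps that difference. miR-486a-5p, flat at the floor in sham, ranked 14 at 1.69.

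Centred within each group, which removes the group difference, miR-144-3p was again nearest at 0.78, where a flat profile gives 1.19. The other miRNAs named by the rule, miR-466h-5p, miR-7005-5p, miR-7085-3p, miR-132-3p, miR-6943-3p and miR-139-3p, lay between 1.09 and 1.12, close to flat. The measure depends on the size of a miRNA's spread, and miR-144-3p ranked 2 in sham spread behind miR-451a. A miRNA with the median sham SD of 0.13 would lie close to flat even if it followed miR-451a. Lying close to flat therefore does not show that a miRNA failed to follow it. miR-144-3p lay on the same side of its group mean as miR-451a on 7 of 8 arrays, and miR-139-3p did on 8 of 8. miR-486a-5p ranked 96 at 1.18, since its floored sham values do not vary.

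The list of red cell miRNAs had 8 names, 7 of them on the array and 4 detected, which were the members. Only miR-451a was detected in both groups on every array, so no median or count is read over them; the median log2 change of all 379 tested was -0.11. miR-451b, miR-486a-3p and miR-486b-3p were detected on 0 arrays. Of 12 tested miRNAs that are abundant in red cells and in many other cells, 0 were called higher and 8 lower at adjusted p below 0.05 in limma, with a median log2 change of -0.38, where 36.7% of all tested miRNAs were called lower. miR-22-3p averaged 3663 ± 249 in IRI and 5206 ± 258 in sham, and miR-16-5p 1920 ± 191 in IRI and 2596 ± 126 in sham (SD, n = 4 each). Their log2 changes were -0.51 (limma adjusted p = 0.00121) and -0.44 (limma adjusted p = 0.00368). miR-107-3p and miR-15a-5p were also lower in IRI, by log2 changes of -0.69 and -0.50. Without scaling between arrays 1 of all 379 tested miRNAs was called lower, and with spike-in scaling 2 were, so lower calls here and in the lists that follow hold relative to the scaling. The call of miR-451a was kept under both, and so were those of miR-144-3p and miR-486a-5p, which entered the test only through the IRI arrays.

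Markers of other cells were measured on the same arrays. Of 6 tested leukocyte miRNAs 1 was called higher and 0 lower, where 12.1% of all tested miRNAs were called higher, and their summed signal was 814 to 1173 in IRI and 622 to 782 in sham. The called one was miR-223-3p of neutrophils and other myeloid cells, at 378, 448, 270 and 384 on IRI 1, 2, 3 and 18 and at 123, 128, 117 and 137 on sham 1, 2, 3 and 6. Its order differed from that of miR-451a, with IRI 2 and sham 6 highest. miR-142a-3p, common to blood cells with a nucleus, had a log2 change of 0.29 (limma adjusted p = 0.160), miR-342-3p of -0.14 and miR-155-5p of 0.07.

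Both endothelial and platelet miRNAs tested were called lower, where 36.7% of all tested were, with sums of 3836 to 4321 in IRI and 4623 to 5333 in sham. All 6 tubule miRNAs were called lower, beside the same 36.7%, with a median log2 change of -0.46 and sums of 14491 to 16483 in IRI and 19843 to 22571 in sham. Of 7 muscle miRNAs 2 were detected, and the one tested, miR-1a-3p, had a log2 change of -0.54 (limma adjusted p = 0.00477). The muscle sum was 31.2 to 44.1 in IRI and 44.1 to 57.6 in sham, with the highest IRI sum just above the lowest sham sum. These sums include undetected signals. The part of these cells in the change of the members was not tested.

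**Figure D5:**
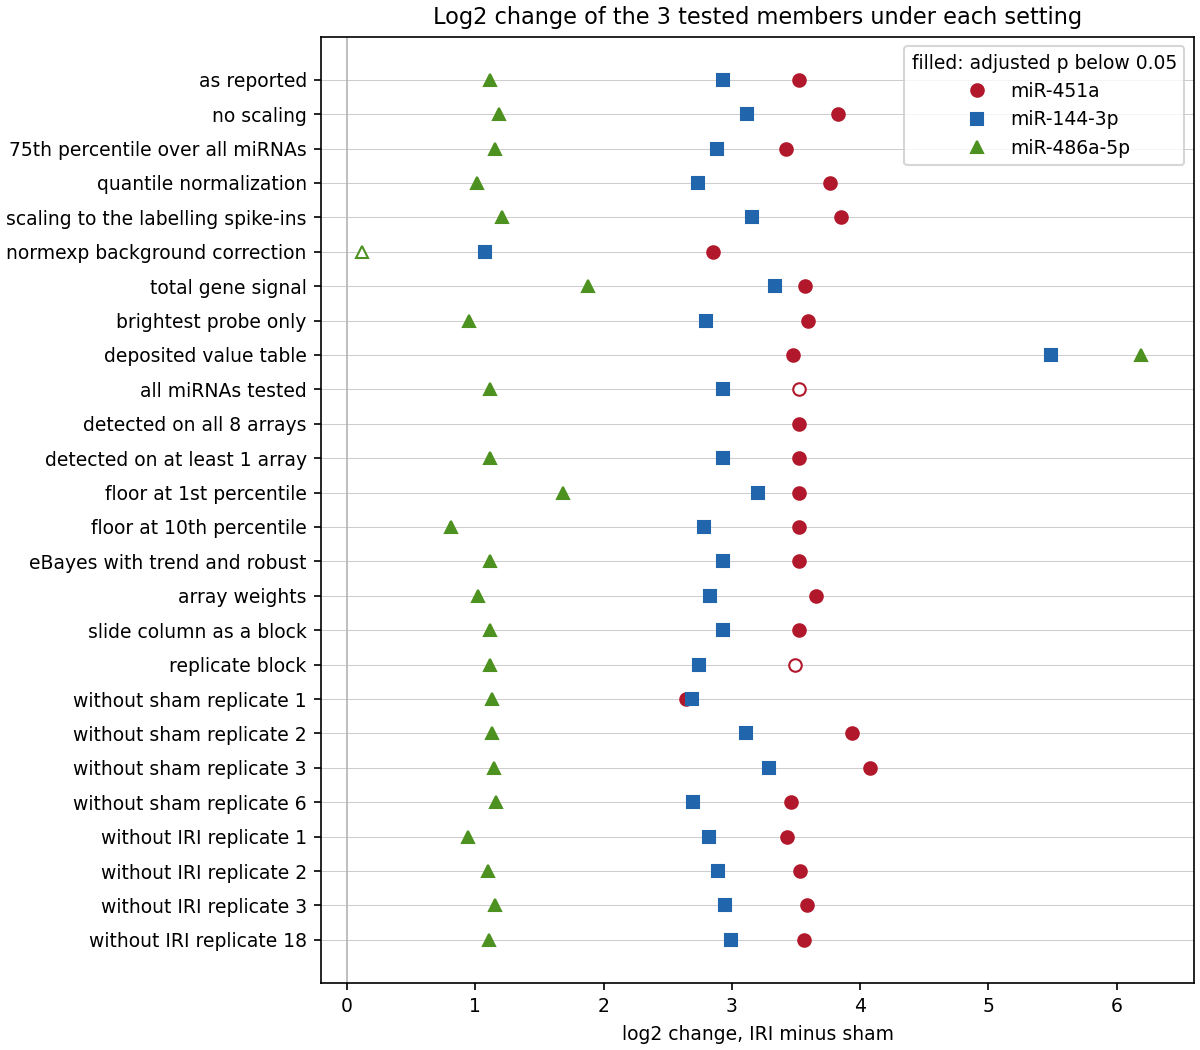
Log2 change, IRI minus sham (horizontal axis), of miR-451a, miR-144-3p and miR-486a-5p as reported and under each alternative setting (vertical axis), with filled marks where the limma adjusted p was below 0.05. All marks lie above 0, from 2.64 to 4.08 for miR-451a, from 1.08 to 5.49 for miR-144-3p and from 0.11 to 6.19 for miR-486a-5p. The 5.49 and 6.19 are those of the deposited table, whose ratios for undetected sham arrays are scaled constants, so they are no measured sizes.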

How the data were processed

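Spot intensity in the deposited scanner files is linear. Agilent Feature Extraction 12.0.3.1 is named in the submitters' processing notes, with a fitted background surface subtracted and no normalization between arrays per the file headers. A deposited table gives 1 linear ratio for each miRNA. It matched total gene signals with 1 factor per array and 1 centre per entry within 1.56e-05 (log2) over 317 miRNAs. Its scaling rule and exact centring stay unknown, and a higher ratio means more signal where the miRNA was detected. Its column medians were 0.658, 0.646, 1.16 and 0.749 in IRI and 0.859, 1.23, 1.29 and 1.30 in sham. Ratios of undetected members ran in a fixed proportion to these medians, so the medians act as array factors and do not compare signal between groups. It was used only as an alternative.

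RNA came from 30 mg of kidney, and 100 ng was labelled with Cy3, per the labels' protocols. From 56430 spots of 4415 probes, outlier spots (1422 to 1560 per array) were left out, and 0 were saturated. Processed signals were averaged per probe and summed per miRNA. Scaling divided each array by its 75th percentile, taken over 317 miRNAs that every array detected, then values were raised to the floor of 17.3 and taken to log2. A miRNA was tested where either group detected it on all 4 arrays, which left 379. The fit used lmFit and eBayes of limma 3.58.1 (R 4.3.3), two-sided and with no covariate. A clearly measured signal had the well-above-background flag on most of its spots. The weakest was 17.8 to 19.6 on IRI arrays and 23.9 to 27.6 on sham arrays. Precision is limited by 4 arrays per group.

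The fit was tested on simulated data of the IRI and sham arrays (379 miRNAs) and found 15 of 20 changes of 1.5-fold, 17 of 20 of 2-fold and 20 of 20 of 4-fold, and called 3 of 319 unchanged miRNAs. No 2 arrays held duplicate data. The members and lists were chosen with earlier results of these data known. Named miRNAs were the members, up to 4 of the brightest tested per list, and the 6 nearest to miR-451a by each likeness measure. miR-706, miR-5128 and miR-468-3p were named after their spreads were seen, and undetected list entries after their values were seen. Other settings tried were the scaling, floor and filters, background correction, probe summary, variance model, blocks and the loss of each array.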

Additional observations from a re-analysis of the deposited data

Results flagged for a closer look

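A lone array far from the others of its group by Dixon's test at the 95% level was looked for in 62 groups of 4 values, and chance gives about 1 in 20. The log2 difference between miR-451a and miR-144-3p was 1.31 on sham 1, against 3.75 to 3.93 on the other sham arrays, with miR-144-3p at the floor on sham 1 and sham 6. miR-16-5p was 2206 on IRI 1, against 1812 to 1846 on the other IRI arrays. IRI 1 was also the highest IRI array for all erythroid members, and for miRNAs of other cells such as miR-192-5p and miR-126a-3p. miR-7005-5p was 261.8 on IRI 18, against 158 to 168 on the others. On sham 2, miR-22-3p was 4821, against 5308 to 5371 on the other sham arrays, and miR-126a-3p was 4476, against 5101 to 5165. miR-342-3p was 130.2 on sham 6, against 111 to 113 on the other sham arrays.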

How the results depend on the processing

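miR-451a kept its direction under all 25 alternatives, with log2 changes of 2.64 to 4.08 (the range of leaving out 1 array). Its call was lost with all 1881 miRNAs tested (3.53, limma adjusted p = 0.126) and with the replicate block (3.49, limma adjusted p = 0.107). The numbers in the titles share no stated origin, and deviations of same-numbered arrays correlated at -0.16, -0.20 and 0.24 over 379 miRNAs, so they were not taken as pairs. miR-144-3p was called under all 24 alternatives that tested it, from 1.08 (normexp) to 5.49 (deposited table). Like miR-486a-5p, it entered nearly all of these fits only because every IRI array detected it, so kept calls add no support. miR-486a-5p lost its call under normexp alone (0.11, limma adjusted p = 0.235), and reached 1.88 with total gene signal, 1.68 with a floor at the 1st percentile and 6.19 in the authors' deposited table. The 5.49 and the 6.19 rest on deposited ratios of undetected sham arrays, which are a constant times an array factor. Neither is a measured size. Tested only where detected on all 8 arrays, 1 member (miR-451a) was testable and called. The difference between miR-451a and miR-144-3p was 1.78 under normexp, whose offset shrinks the changes of dim miRNAs most. It was -0.088 on the 6 arrays with both detected, and -0.046 to 0.82 leaving out 1 array, turning sign without sham replicate 1. The difference of miR-144-5p between IRI and sham, 9.43 on the linear scale, was -9.07 under normexp, which adds an offset of 50 before scaling, 0.549 with total gene signal and 6.28 with the brightest probe. The sham SD was 0.97 to 2.36 for miR-451a and 0.24 to 1.19 for miR-144-3p. Of all tested miRNAs, 46 higher and 139 lower became 53 and 1 without scaling, 72 and 2 with spike-in scaling, 18 and 159 with normexp, 21 and 90 with all miRNAs tested, and 17 and 50 with the replicate block. The median log2 change of all tested was -0.11 as reported, 0.17 without scaling and 0.19 with spike-in scaling. Signals of miR-486a-5p in sham and of miR-144-5p lay at the background, which limits their folds.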

Other observations

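miR-122-5p, the main miRNA of liver cells, passed the detection call on IRI 1 alone, at a scaled signal of 33.5. That array was also the highest for the 4 erythroid members, and the highest IRI array for miRNAs of other cells such as miR-192-5p and miR-126a-3p. In the authors' deposited table miR-144-5p had ratios of 17.9, 0.539, 0.971 and 0.625 on IRI 1, 2, 3 and 18, and 0.717, 1.03, 1.08 and 1.08 on sham 1, 2, 3 and 6. IRI 1 was the only array that detected miR-144-5p. On the other arrays these ratios ran in a fixed proportion to the column medians of that table. They are therefore a constant times an array factor and no measured signal of miR-144-5p. miR-451a had ratios of 2.39, 2.03, 2.03 and 1.80 on IRI 1, 2, 3 and 18, and 0.0299, 0.467, 0.557 and 0.149 on sham 1, 2, 3 and 6 in the same deposited table, with sham 1 lowest there too.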
